A study of Mus musculus with 9 samples.

Results

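The libraries labelled 1KR and 2KR were made from the intestinal tract of mice that had been returned to a normal diet after a period on a deficient one. The mice behind 1KR had been kept without methionine, and those behind 2KR without tryptophan and niacin, in both cases up to day 28. Both then ate normally up to collection at day 33, and both drank dextran sulfate sodium (DSS, a compound that injures the gut lining and is used as a model of inflammatory bowel disease) from day 18. The pair differs in diet history only as far as the labels say, and is 2 of 9 libraries, 1 for each condition. The sources used here do not give the strain, sex or age of the mice, the number of animals in a library, any pooling, the length of gut taken or the hour of collection. Genes were kept if they reached 1 FPKM (fragments per kilobase of a transcript, relative to library size) in at least 1 of the 2 libraries, which held for 16737 of 55468 genes. Differences are 2KR minus 1KR on the scale log2(FPKM + 0.5), where 1 means a 2-fold difference, and every one of them compares a single library with a single library, so no test was possible.

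Other libraries are used only as reference points. RR was taken at day 33 from DSS-treated mice on the normal diet throughout, and 3KR at day 33 from mice that had lacked methionine, tryptophan and niacin up to day 28. R (normal diet), 1K, 2K and 3K (the same 3 deficient diets) were DSS-treated and collected at day 28 with no return to normal diet, and C is the control without DSS, collected at day 34.

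Methionine is the source of the methyl groups and much of the sulfur that cells use, and tryptophan and niacin both feed the synthesis of NAD. The small intestine changes along its length: enterocytes near the stomach take up iron, folate, sugar and fat, those of the ileum take back bile acids, and Paneth cells at the base of the crypts release antimicrobial proteins. The epithelium and the cells below it can also answer interferons, secreted signals whose receptors act through transcription factors to switch on a set of antiviral genes. Many of those genes carry a promoter element of the form GAAANNGAAA.

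At least 2-fold apart were 1042 genes, 6.23% of those tested, with 494 higher in 2KR (2.95%) and 548 lower (3.27%). Among 12834 protein-coding genes the counts were 150 higher (1.17%) and 162 lower (1.26%), and these shares are the background for the gene lists below. Over all genes the median difference was -0.02. The coding genes higher in 2KR included 18 from a list of interferon response genes and 7 from a list of Paneth cell genes, and those lower in 2KR included 11 T and natural killer (NK) cell genes. Counts for the lists below also take in members outside the protein-coding class, which makes these 19, 8 and 13. Outside the protein-coding class, most genes 2-fold apart were small RNAs (192 higher and 135 lower of 553), pseudogenes (96 and 97 of 1431) and antigen receptor segments (12 and 93 of 209).

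**Figure D1:**
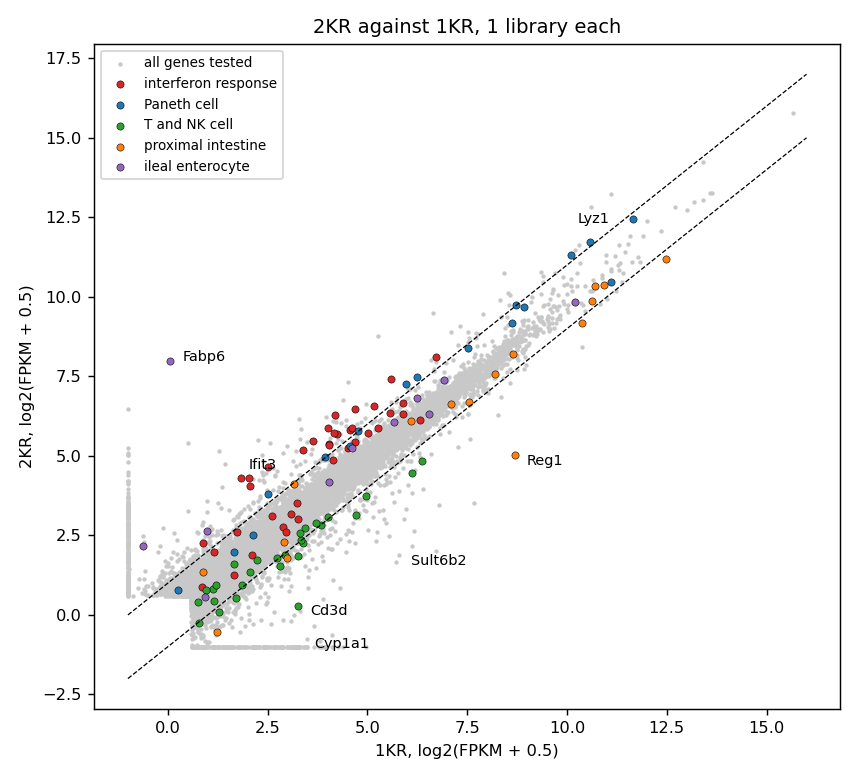
Level of each of the 16737 genes in 1KR (x axis) and 2KR (y axis), both as log2(FPKM + 0.5), with dashed lines at 2-fold differences and 5 gene lists in colour. Many interferon response and Paneth cell genes lie on or above the upper line, many T and NK cell genes on or below the lower one, and Fabp6 and Reg1 lie far off the diagonal.

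Interferon response genes were higher in 2KR, and their list had more members at least 2-fold apart than any other. The list held 40 genes, of which 39 were measured, and 19 of those were at least 2-fold higher in 2KR, none at least 2-fold lower, beside 1.17% and 1.26% of coding genes. The list median was 0.87, beside -0.02 over all genes, and 33 of the 39 were above 0. The promoters of 5 of these genes are shown because the same short element recurs in them. They are the 250 bases before the start site in RefSeq (build GRCm38.p6), written 5′ to 3′ along the gene, with capitals marking matches to GAAANNGAAA or its reverse complement TTTCNNTTTC.
Ifit1: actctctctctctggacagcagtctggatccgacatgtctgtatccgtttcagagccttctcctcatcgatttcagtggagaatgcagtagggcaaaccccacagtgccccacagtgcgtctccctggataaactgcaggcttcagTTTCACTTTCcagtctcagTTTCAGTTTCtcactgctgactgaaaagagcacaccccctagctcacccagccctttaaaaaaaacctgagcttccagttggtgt
Ifit3: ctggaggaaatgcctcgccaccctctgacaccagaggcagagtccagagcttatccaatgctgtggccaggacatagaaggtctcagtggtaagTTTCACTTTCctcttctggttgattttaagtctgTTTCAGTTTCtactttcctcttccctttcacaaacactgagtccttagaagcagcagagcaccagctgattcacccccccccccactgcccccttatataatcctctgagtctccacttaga
Rsad2: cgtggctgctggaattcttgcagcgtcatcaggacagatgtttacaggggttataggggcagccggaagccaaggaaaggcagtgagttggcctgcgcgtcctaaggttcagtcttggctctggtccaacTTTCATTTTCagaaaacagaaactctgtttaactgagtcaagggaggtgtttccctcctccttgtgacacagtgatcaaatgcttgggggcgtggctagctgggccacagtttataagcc
Isg15: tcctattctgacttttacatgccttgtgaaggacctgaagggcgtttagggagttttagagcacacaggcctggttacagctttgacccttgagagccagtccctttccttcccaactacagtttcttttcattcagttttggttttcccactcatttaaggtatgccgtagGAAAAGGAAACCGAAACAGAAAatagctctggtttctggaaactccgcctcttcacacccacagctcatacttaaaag
Gbp2: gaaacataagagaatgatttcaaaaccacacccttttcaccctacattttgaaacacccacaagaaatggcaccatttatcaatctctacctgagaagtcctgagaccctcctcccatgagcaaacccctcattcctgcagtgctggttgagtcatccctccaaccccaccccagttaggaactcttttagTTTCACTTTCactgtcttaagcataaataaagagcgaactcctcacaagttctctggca

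These lie at chr19:34640639-34640888 on the plus strand (Ifit1), chr19:34583279-34583528 on the plus strand (Ifit3), chr12:26456453-26456702 on the minus strand (Rsad2), chr4:156200819-156201068 on the minus strand (Isg15) and chr3:142620413-142620662 on the plus strand (Gbp2). In Ifit1 the matches begin 104 and 85 bases before the start site, in Ifit3 at 156 and 122, in Rsad2 at 120 and in Gbp2 at 59. In Isg15 there are 3 overlapping matches, beginning at 78, 72 and 66 bases. Over windows from 250 bases before to 50 after the start, searched on both strands, 22 of the 28 measured list members with an entry held a match (78.6%). Counted per gene in the same way, 1079 of all 27025 genes with a promoter entry held one (3.99%). The match did not separate the members that differed from those that did not: 11 of 14 in each group held one. Gbp2 is printed as such a member, at 8.02 FPKM in 1KR and 8.59 FPKM in 2KR.

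Ifit1 and Ifit3 encode proteins that bind foreign RNA. Ifit1 stood at 17.9 FPKM in 1KR and 78.3 FPKM in 2KR, with 9.38 FPKM in RR, 1.51 FPKM in 3KR and 2.30 FPKM to 8.44 FPKM in the other 5 libraries. Ifit3 stood at 3.05 FPKM in 1KR and 19.1 FPKM in 2KR, with 1.73 FPKM in RR and 0.497 FPKM in 3KR. The differences were 2.10 and 2.46, and rest on roughly 1347 and 6129 fragments for Ifit1 and 151 and 981 for Ifit3. In both genes 2KR was the highest of the 9 libraries.

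Rsad2, which encodes viperin, a blocker of viral genome copying, was at 5.20 FPKM in 1KR and 24.7 FPKM in 2KR (difference 2.14). Isg15, a ubiquitin-like protein attached to other proteins in the response, was at 25.4 FPKM and 89.0 FPKM (1.79), and Usp18, which removes it and dampens the receptor, at 9.99 FPKM and 36.0 FPKM (1.80). The genes that make the antiviral messenger 2′-5′ oligoadenylate, or resemble those that do, were all above 0 at the 7 measured, and 5 were at least 2-fold higher in 2KR. Oas2 was at 3.56 FPKM and 19.1 FPKM (2.27), Oas1a at 15.7 FPKM and 58.9 FPKM (1.87), Oas3 at 15.9 FPKM and 40.5 FPKM (1.32), and Oasl2 at 47.7 FPKM and 170 FPKM (1.82). Irf7, the transcription factor that amplifies interferon production, was at 105 FPKM and 273 FPKM (1.37). Zbp1, a sensor of unusual nucleic acid, was at 15.9 FPKM and 41.2 FPKM (1.34).

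The remaining members more than 2-fold higher were Mx2 (2.00), Bst2, which tethers virus particles to the cell (1.83), Irgm1 (1.54), Xaf1 (1.44), Ddx60 (1.39), Ifit3b (1.37), Oas1g (1.27) and Rtp4 (1.25). Close to them but under 2-fold were Mx1 (0.87), Ifit2 (0.84) and Stat2 (25.3 FPKM and 43.3 FPKM, 0.76). Several members are near-identical copies of one another, such as the Ifit3 and Ifit3b pair and the Oas1 genes, and the sources used here do not say how fragments shared by copies were assigned. Outside the list, Ifit1bl1 (9.51 FPKM and 57.2 FPKM, 2.53) and Dhx58, a regulator of RNA sensing (5.01 FPKM and 21.5 FPKM, 2.00), were among the 15 genes with the largest positive difference. Trim30a (4.81 FPKM and 17.6 FPKM) and Trim30d (6.88 FPKM and 17.6 FPKM), chosen after their values were seen, were also more than 2-fold higher.

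Not all of the list stood apart. The guanylate binding proteins, which act against microbes inside cells and respond mainly to interferon gamma, ranged from -0.41 to 0.48 over the 9 family members measured. Irf1, a factor of the same kind of response, was at 79.3 FPKM in 1KR and 68.7 FPKM in 2KR (-0.20). The 6 measured Irgm, Igtp, Iigp1 and Tgtp genes of the list were split, with 3 above 0 and 3 below. Irgm1, given above, was at 1.54, Igtp and Irgm2 were both at 0.73, and the lowest of the 6 was Tgtp2 at -0.34. The genes of antigen presentation on MHC class I gave 0 of 19 members 2-fold apart and a median of -0.02. Those of MHC class II gave 0 of 10, with all 10 below 0 and a median of -0.47, for example H2-Eb1 at 93.3 FPKM and 61.4 FPKM. Their transcription factor Ciita was at 6.92 FPKM in 1KR and 4.48 FPKM in 2KR.

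The choice of the 19 fixes that 2KR was above 1KR, so the order of the day 33 libraries is given over all 39 measured. 1KR was above RR in 36 of 39, 2KR was above 1KR and 1KR above RR in 31, and 31 were highest in 2KR among the 9 libraries. The median level of the 39 was 40.5 FPKM in 2KR, 15.9 FPKM in 1KR, 9.38 FPKM in RR and 2.86 FPKM in 3KR, and lay between 2.83 FPKM and 5.43 FPKM in the 5 other libraries. Of the 19, RR lay nearer 1KR than 2KR in 19. In the day 28 pair, 2K minus 1K, the same list had a median of -0.44.

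**Figure D2:**
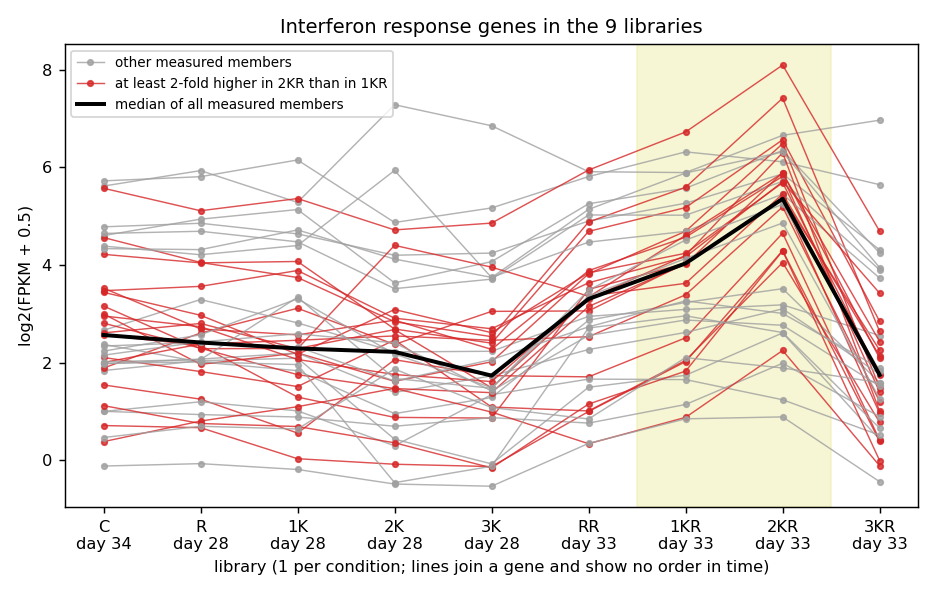
Level of the 39 measured interferon response genes, as log2(FPKM + 0.5) on the y axis, in the 9 libraries on the x axis, with the 19 genes at least 2-fold higher in 2KR than in 1KR in red, the others in grey, the median in black, and 1KR and 2KR shaded. The median is highest in 2KR and second highest in 1KR, and the red lines peak in 2KR.

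The interferons themselves were barely seen. Ifnb1, Ifng, Ifne, the alpha genes listed and the lambda genes Ifnl2 and Ifnl3 were all under 1 FPKM in both libraries, at most 0.165 FPKM for Ifng in 2KR. Of 25 ligands, receptors and signal proteins, a list chosen after earlier values were seen, 16 were measured and 0 were 2-fold apart. Ifnar1, a chain of the type I receptor, was at 25.6 FPKM and 25.3 FPKM, and Irf9 at 32.6 FPKM and 32.4 FPKM.

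Genes that mark the place along the gut were a second contrast, and Fabp6 was its extreme. Fabp6, the bile acid carrier of ileal enterocytes (chr11:43596049-43601540, GRCm38, minus strand), was at 0.545 FPKM in 1KR and 255 FPKM in 2KR, a difference of 7.93 that rests on roughly 7 and 3604 fragments. RR was at 2.90 FPKM and 3KR at 658 FPKM, while C and R, both on the normal diet, were at 3486 FPKM and 1946 FPKM. Fgf15, the ileal hormone that reports bile acids to the liver, was at 0.147 FPKM in 1KR and 3.95 FPKM in 2KR (2.78), beside 90.4 FPKM in C. Slc10a2, the ileal bile acid importer, was at 1.48 FPKM in 1KR, 5.67 FPKM in 2KR and 1.58 FPKM in RR (1.64). These 3 were the ileal list members at least 2-fold higher, of 11 measured, with 0 lower and a median of 0.49.

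The other ileal genes were close. Osr2 was at 23.9 FPKM and 37.9 FPKM (0.65), Mep1a, a brush border protease, at 74.96 FPKM and 112 FPKM (0.58), and Slc51a, a chain of the bile acid exporter, at 119 FPKM and 168 FPKM (0.49). Cubn, the receptor for vitamin B12 bound to intrinsic factor, was lower, at 93.2 FPKM and 78.6 FPKM (-0.24). Nr1h4, the bile acid receptor FXR, was at 15.8 FPKM and 17.5 FPKM. A further 3 of the 15 genes with the largest positive difference were, like Fabp6, far higher in C and R than in 1KR: Tmigd1 (4.72 FPKM in 1KR and 20.7 FPKM in 2KR, with 195 FPKM in C), Plb1, a brush border phospholipase (18.0 FPKM and 73.1 FPKM, with 313 FPKM in C), and Mgat4c (4.39 FPKM and 18.2 FPKM, with 68.7 FPKM in C).

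Genes of the proximal intestine were lower in 2KR: 5 of 16 measured were at least 2-fold lower and 0 higher, beside 1.26% and 1.17% of coding genes, with a median of -0.62. Reg1, a secreted protein of the proximal gut and pancreas (chr6:78422711-78428667, plus strand), was at 413 FPKM in 1KR and 32.0 FPKM in 2KR (-3.67), with 244 FPKM in RR and 1.13 FPKM in 3KR. Pdx1, the transcription factor of duodenum and pancreas, was at 1.84 FPKM and 0.194 FPKM (-1.75). Apoa4, which coats fat particles, was at 5671 FPKM and 2330 FPKM (-1.28), Adh1, an alcohol and retinol dehydrogenase, at 1336 FPKM and 574 FPKM (-1.22), and Onecut2 at 7.44 FPKM and 2.94 FPKM (-1.21). Gata4, whose protein sets the boundary between jejunum and ileum, did not follow, at 68.2 FPKM and 68.5 FPKM, and Lct, lactase, was at 398 FPKM and 297 FPKM (-0.42). Gsta1 went the other way, at 8.465 FPKM in 1KR and 16.9 FPKM in 2KR (0.96). Of the 16 proximal genes measured, 3 were above 0 and 13 below. Of the 15 genes on the colon list 10 were measured, with 2 higher (Mptx1 and Saa1), 1 lower (Aqp8) and a median of -0.02. Hoxb13, Hoxa13 and Hoxd13, which mark the hindgut, were listed at 0 in both libraries and Car1 was at 0.093 FPKM and 0.238 FPKM.

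**Figure D3:**
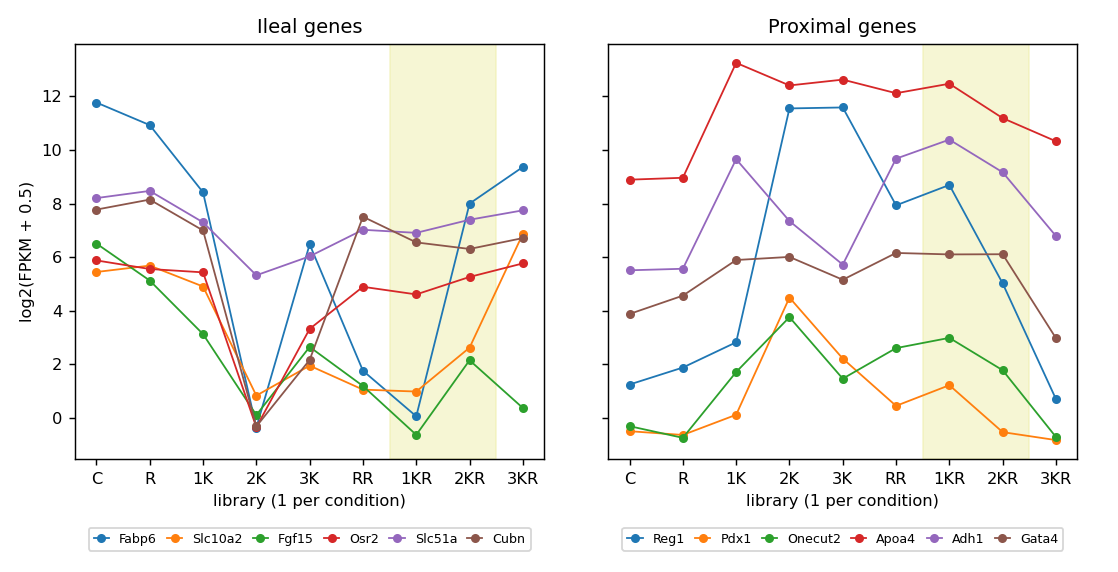
Levels of 6 ileal genes (left) and 6 proximal genes (right) as log2(FPKM + 0.5) in the 9 libraries, with 1KR and 2KR shaded. Fabp6 is higher in 2KR and Reg1 lower, while Gata4 is level between the 2 libraries.

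Genes of digestion and uptake, several of them known from the duodenum, were among the 15 with the largest negative difference. Tmprss15, the enteropeptidase that starts trypsin activation (chr16:78953008-79091097, minus strand), was at 13.6 FPKM in 1KR and 0.072 FPKM in 2KR, with 3.65 FPKM in RR, 0.016 FPKM in 3KR and 0.03 FPKM in C (-4.63). Akp3, an alkaline phosphatase of the brush border, was at 14.4 FPKM and 0.928 FPKM (-3.38), and Otop3, a proton channel, at 8.44 FPKM and 0.497 FPKM (-3.16). Slc46a1, which imports folate, was at 155 FPKM and 38.3 FPKM (-1.998), S100g, the calcium carrier calbindin-D9k, at 12.7 FPKM and 2.30 FPKM (-2.23), and Ada, adenosine deaminase, at 307 FPKM and 77.8 FPKM (-1.97). RR lay between the 2 libraries for each of these 6 genes. The length of gut sampled is not given for any library, so a difference in place and a difference in diet history cannot be told apart.

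Several metabolic lists had lower values in 2KR with few members 2-fold apart. For sugar digestion and transport the count was 3 of 15 lower and 0 higher, all 15 were below 0 and the median was -0.61. The 3 were the gluconeogenic enzymes G6pc (25.3 FPKM and 7.70 FPKM, -1.65), Fbp1 (43.4 FPKM and 16.9 FPKM, -1.34) and Pck1 (382 FPKM and 158 FPKM, -1.28), and all 3 had RR nearer 1KR. Fat absorption gave 3 of 19 lower (Apoa4, Dgat2 and Apoc2) and a median of -0.36, and 1 lower with small RNAs left out. Retinol and xenobiotic metabolism gave 3 of 31 lower (Adh1, Cyp2b10 and Ces1f) and a median of -0.47, and targets of PPAR, the fatty acid sensors, 2 of 22 lower (Pdk4 at 53.9 FPKM and 21.6 FPKM, and Angptl4 at 29.6 FPKM and 12.1 FPKM) and a median of -0.43. Of 51 nuclear genes of oxidative phosphorylation 0 were 2-fold apart, but only 4 were above 0 and the median was -0.32. The 13 mitochondrially encoded genes had a median of 0.27, with 10 above 0. Fatty acid synthesis (0 of 15 apart, median 0.08) and cholesterol synthesis (0 of 24 apart, median -0.04) were not among the lower lists.

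Single genes of drug and sulfur metabolism differed by more. Cyp1a1, the classic target of the aryl hydrocarbon receptor, which senses tryptophan products and dietary indoles (chr9:57687928-57703824, plus strand), was at 10.6 FPKM in 1KR and 0.096 FPKM in 2KR, with 1.34 FPKM in RR, 0.766 FPKM in 3KR and 0.342 FPKM in C (-4.22). It was the only 1 of the 9 measured genes of its list that was 2-fold apart. Of the 9, however, 8 were below 0, and the list median was -0.42. Ahrr, the receptor's repressor, was at 1.85 FPKM and 1.06 FPKM, and Ugt1a6a at 9.06 FPKM and 4.99 FPKM. Sult6b2, a sulfotransferase, was at 54.9 FPKM and 3.20 FPKM (-3.91), with 14.95 FPKM in RR and 0.035 FPKM in C. Papss2, which makes the sulfate donor PAPS, was at 188 FPKM and 45.7 FPKM (-2.03), with 91.5 FPKM in RR. Slc13a1, the sulfate importer, was at 96.2 FPKM and 32.5 FPKM (-1.55), with 43.7 FPKM in RR. These 3 were the members at least 2-fold lower of 18 measured genes of sulfate uptake and sulfation, a list chosen after their values were seen.

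The pathways of the nutrients that had been left out had few genes 2-fold apart. Of 25 measured genes of the methionine cycle and transsulfuration 0 were 2-fold apart and the median was 0.08. The largest difference was that of Gnmt, which consumes S-adenosylmethionine, at 1.21 FPKM in 1KR and 2.80 FPKM in 2KR (0.95). Of 18 genes of kynurenine and NAD synthesis 1 was lower: Ido1, which opens the tryptophan ring, at 9.58 FPKM and 3.06 FPKM (-1.50), beside 10.5 FPKM in RR and 2.07 FPKM in 3KR. On that list 13 of the 18 were below 0 and the median was -0.21. Of 7 measured genes of the serotonin list 1 was lower, Aanat (1.79 FPKM and 0.228 FPKM, -1.65), and the median was -0.09. The amino acid response had 2 of 37 higher, Chac1 (1.01 FPKM and 2.78 FPKM, 1.12) and Nupr1 (14.7 FPKM and 30.8 FPKM, 1.04), and a median of 0.10. Cell cycle genes gave 0 of 40 members 2-fold apart, but 34 were above 0, beside 47.4% of all genes, and the median was 0.20.

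Paneth cell genes were higher in 2KR: 8 of the 17 measured passed 2-fold and 0 were 2-fold lower, and the median was 0.89. Lyz1, the Paneth cell lysozyme, was at 1516 FPKM in 1KR and 3407 FPKM in 2KR (1.17), with 2048 FPKM in RR, 193 FPKM in 3KR and 1592 FPKM in C. Pla2g2a, a secreted phospholipase that kills bacteria, was at 1096 FPKM and 2545 FPKM (1.22), and Ang4, an antimicrobial ribonuclease, at 74.7 FPKM and 178 FPKM (1.25). Mmp7, which activates defensins, was at 61.6 FPKM and 152 FPKM (1.30). The other members 2-fold higher were Habp2 (1.29), Nupr1 (1.04), Defa23 (1.02) and Itln1 (1.02). In 7 of the 8 genes RR lay nearer 1KR than 2KR.

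The alpha-defensins, which Paneth cells store as antimicrobial peptides, were above 0 in 17 of 18 genes of the family and at least 2-fold higher in 5. The exception, Defa38, was lower at 50.2 FPKM and 24.5 FPKM (-1.02). Defa24 was at 3213 FPKM and 5550 FPKM (0.79), and Defa17 at 182 FPKM and 338 FPKM (0.89). The defensin genes are near-identical copies, so their single values are uncertain. Stem cell genes of the same crypt base gave 0 of 15 members 2-fold apart, but 14 were above 0 and the median was 0.42. Lgr5, the stem cell receptor, was at 2.05 FPKM in 1KR, 4.55 FPKM in 2KR and 4.15 FPKM in RR (0.99), and Olfm4 was at 202 FPKM and 274 FPKM (0.44). Ileal genes were higher and proximal genes lower in the same library, and the part of gut position in the Paneth cell values was not tested. In bulk tissue, fewer cells of a type and less RNA per cell cannot be told apart.

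Other epithelial defence genes were mixed. On that list 8 of 21 were higher (5 with a pseudocount of 1) and 2 lower, and 3 of the 8 (Ang4, Pla2g2a and Lyz1) are Paneth cell genes already given. Saa3, an acute phase protein, was at 2.07 FPKM in 1KR and 15.7 FPKM in 2KR (2.66), with 16.8 FPKM in RR and 185 FPKM in 3KR. Duox2, the epithelial enzyme that makes hydrogen peroxide, was at 4.27 FPKM and 11.4 FPKM (1.31). Saa2 (1.13), Saa1 (1.07) and Gsdmc2 (1.02) were the others higher, and S100g and Ido1 were lower.

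T and NK cell genes were lower in 2KR. Of 28 measured, 13 were at least 2-fold lower and 0 higher, all 28 were below 0, and the median was -0.98. Cd3d, a chain of the T cell receptor complex (chr9:44981786-44987339, plus strand), was at 9.11 FPKM in 1KR and 0.721 FPKM in 2KR (-2.98), with 3.95 FPKM in RR and 5.03 FPKM in 3KR. The other chains differed less: Cd3e was at 15.5 FPKM and 7.95 FPKM (-0.92) and Cd3g at 6.21 FPKM and 2.95 FPKM (-0.96). Cd3d thus stood apart from the chains that its protein is assembled with.

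The genes of killer cells and of the lymphocytes within the epithelium were in this group. Gzma and Gzmb, granule proteases, were at 81.6 FPKM and 28.3 FPKM (-1.51) and at 25.7 FPKM and 8.38 FPKM (-1.56). Ccl5, a chemokine stored by such cells, was at 68.7 FPKM in 1KR, 21.4 FPKM in 2KR and 34.4 FPKM in RR (-1.66). Cd8a was at 9.04 FPKM and 3.11 FPKM (-1.40), Cd7 at 30.6 FPKM and 13.0 FPKM (-1.20), and Itgae, the integrin CD103 that holds lymphocytes in the epithelium, at 9.60 FPKM and 4.59 FPKM (-0.99). Cd4, the marker of helper cells, was at 4.18 FPKM and 2.79 FPKM (-0.51). For the 13 genes RR lay nearer 2KR in 8 and nearer 1KR in 5. With a pseudocount of 1 in place of 0.5 the count of 13 became 8.

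**Figure D4:**
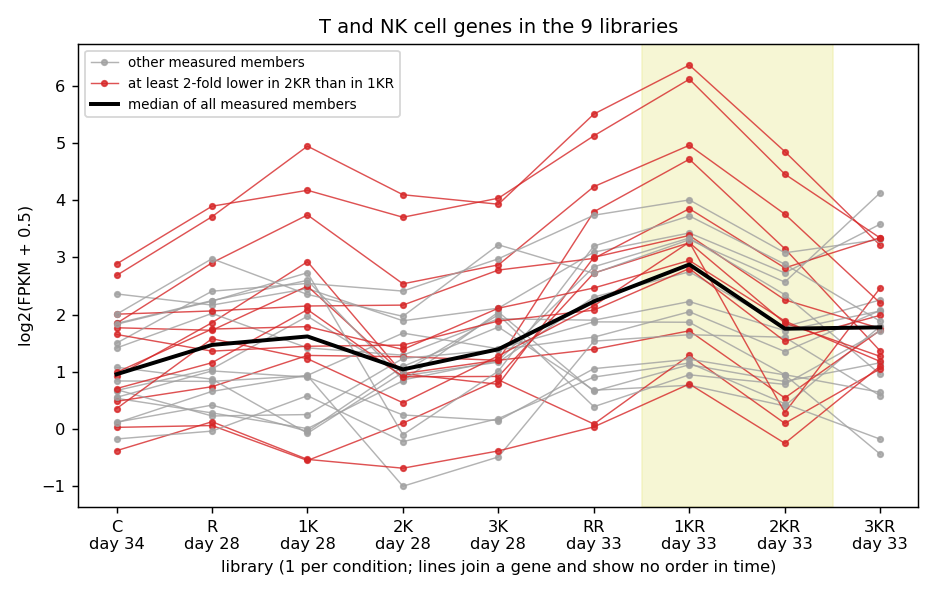
Level of the 28 measured T and NK cell genes as log2(FPKM + 0.5) in the 9 libraries, with the 13 genes at least 2-fold lower in 2KR than in 1KR in red, the others in grey, the median in black, and 1KR and 2KR shaded. The median is highest in 1KR.

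Genes of plasma cells, which secrete antibody, were lower in 2KR as well. Igha, the constant region of IgA, was at 1810 FPKM in 1KR, 873 FPKM in 2KR and 1110 FPKM in RR (-1.05). Jchain, which links IgA units, was at 336 FPKM, 176 FPKM and 223 FPKM (-0.93), and Mzb1, a folding helper of these cells, at 16.7 FPKM, 7.49 FPKM and 5.75 FPKM (-1.11). Of the 16 measured genes of the list 3 were at least 2-fold lower (Mzb1, Igha and Ighg2c) and 0 higher, with a median of -0.46, and RR lay nearer 2KR for all 3. With small RNAs left out and the libraries rescaled, 0 were. Variable segments of the heavy chain were lower in 45 of 97 and higher in 3, with summed levels of 1904 FPKM in 1KR, 1054 FPKM in 2KR and 1155 FPKM in RR. Those of the kappa light chain were lower in 37 of 84 and higher in 8, with sums of 2658 FPKM, 1477 FPKM and 1633 FPKM. B cell genes gave 0 of 20 members 2-fold apart, with Ighm, the constant region of IgM, at 61.8 FPKM and 110 FPKM (0.83).

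Of 22 macrophage genes measured 3 were higher and 1 lower, 19 were above 0 and the median was 0.27. With a floor of 5 FPKM 1 was higher. Gpnmb, a membrane protein of lipid-laden macrophages, was at 0.426 FPKM in 1KR and 6.20 FPKM in 2KR, with 14.00 FPKM in RR, 17.7 FPKM in R and 0.198 FPKM in C (2.86). Mmp12, the macrophage elastase, was at 0.338 FPKM and 3.45 FPKM, with 11.1 FPKM in RR and 0.624 FPKM in C (2.24), and Trem2, a lipid receptor, at 0.372 FPKM and 1.79 FPKM, with 3.30 FPKM in RR (1.40). In these 3 genes 1KR and C were under 1 FPKM, and RR lay nearer 2KR than 1KR. General macrophage genes were level, with Csf1r at 27.2 FPKM and 29.9 FPKM and C1qa at 33.8 FPKM and 35.9 FPKM. Ly6c2, a marker of fresh monocytes, was lower at 8.86 FPKM and 3.54 FPKM (-1.21).

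Among cytokines and chemokines 3 of 12 were lower and 0 higher: Ccl5, given above, Ccl20 (2.64 FPKM and 0.799 FPKM) and Ccl21a (16.9 FPKM and 0.146 FPKM, -4.75). Ccl21a, a chemokine of lymphatic vessels, is a gene on an unplaced scaffold with near-identical copies, and its value rests on roughly 193 and 2 fragments, so it is uncertain. Srp54b, the gene with the next largest positive difference after Fabp6 (0.149 FPKM and 5.03 FPKM, 3.09), also has close copies. On the fibroblast list 1 of 18 measured genes was at least 2-fold higher and 0 lower, with a median of 0.36. That gene was C3, a complement protein (30.5 FPKM and 99.0 FPKM, 1.68), with RR at 101 FPKM. Extracellular matrix genes gave 1 of 27 higher and 0 lower, with a median of 0.31. This 1 was Dcn, decorin (52.8 FPKM and 112 FPKM, 1.08), with RR at 118 FPKM. Heat shock genes gave 2 of 19 lower and 0 higher, with a median of -0.18. The 2 were Hspa1b (11.8 FPKM and 4.47 FPKM, -1.30) and Hspa1a (6.71 FPKM and 2.67 FPKM, -1.19).

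**Figure D5:**
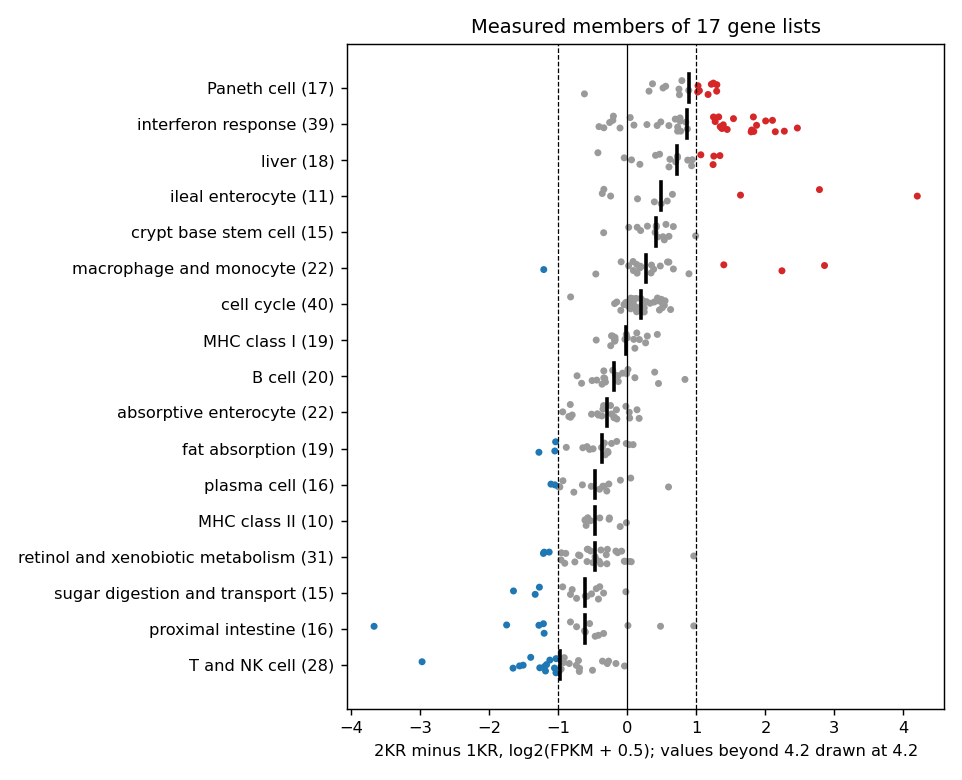
Difference 2KR minus 1KR, on the log2(FPKM + 0.5) scale, for each measured member of 17 gene lists, with list size in brackets, a black bar at the list median, red points at least 2-fold higher, blue points at least 2-fold lower and grey points between; the dashed lines mark 2-fold. Of the 17 lists drawn, the interferon and Paneth cell lists have the most red points, and the T and NK cell list the most blue ones.

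Genes of neighbouring organs were low in both libraries but not equal. Liver genes were higher in 2KR in 4 of 18 with a median of 0.71, and in 7 with a pseudocount of 0.1. Alb, albumin, was at 30.3 FPKM in 1KR and 72.9 FPKM in 2KR, beside 3.36 FPKM in RR and 167 FPKM in C. Pancreatic acinar genes were lower in 7 of 17 with a median of -0.52, and in 2 with a floor of 5 FPKM. Of the 7, none apart from Reg1 was above 5.80 FPKM in 1KR, the level of Ctrb1, a digestive protease. Their part in the results above was not tested. Genes of the outer lining of the gut, the mesothelium, were higher in 2 of 8 with a median of 0.65, such as Wt1 at 0.254 FPKM and 1.53 FPKM.

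Read against the normal diet, the 2 libraries were about equally far from RR. At least 2-fold apart were 1022 genes for 1KR and RR (5.99%) and 1081 for 2KR and RR (6.35%), which share RR. Of the 494 genes higher in 2KR, RR lay nearer 1KR for 268 and nearer 2KR for 226, and of the 548 lower it lay nearer 1KR for 285 and nearer 2KR for 263. The lists differed in this: RR lay nearer 1KR in 19 of 19 interferon response genes and in 7 of 8 Paneth cell genes. It lay nearer 2KR in 8 of 13 T and NK cell genes, and in macrophage and plasma cell genes in 3 of 3 each. The 3 macrophage genes became 1 with a floor of 5 FPKM, and the 3 plasma cell genes 0 with small RNAs left out. 3KR stood farther from all, with 21.1% of genes 2-fold apart from RR, 24.2% from 1KR and 20.5% from 2KR. These 3 share 3KR, which had the fewest fragments, an estimated 13.99 M beside 28.4 M in 1KR and 29.5 M in 2KR. Small and listed abundant noncoding RNAs made up 50.7% of the summed FPKM in 3KR, beside 19.8% in 1KR, 25.2% in 2KR and 26.1% in RR. The part of depth and of this share in the 3KR values was not tested.

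The same diets can be compared at day 28 in 2K and 1K, a pair that shares no library with 2KR and 1KR. That pair was much farther apart, with 5623 of 18600 genes at least 2-fold apart (30.2%), and 2K held transcripts of pancreas and liver, such as Ctrb1 at 24692 FPKM and Alb at 15459 FPKM. Of the 494 genes higher in 2KR, 36.2% were above 0 at day 28 and 43.1% below, and the rest were equal. Of the 548 lower, 44.9% were below 0 and 40.0% above. Over all 16737 genes 43.8% were above 0 and 54.8% below. With libraries rescaled by the median of gene ratios the shares were 41.4% above and 38.4% below for the higher genes, 45.8% above and 38.2% below for the lower genes, and 51.5% above and 47.2% below over all genes. All 3 orders were turned by the scaling. Fabp6 was the clearest reversal: 342 FPKM in 1K and 0.282 FPKM in 2K before the return to normal diet, and 0.545 FPKM in 1KR and 255 FPKM in 2KR after it.

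The precision behind these values is set by 1 library a side. The share of genes 2-fold apart was 8.06% among genes at 1 to 2 FPKM, 4.14% among those at 20 to 100 FPKM and 6.26% among those at 100 FPKM or more. Small RNAs, taken with a list of abundant noncoding RNAs that also holds the long Malat1, Neat1 and Xist, made up 19.8% of the summed FPKM in 1KR and 25.2% in 2KR. Of the 553 small RNAs tested, without that list, 34.7% were 2-fold higher and 24.4% lower. The values of small RNAs are therefore given here only as counts.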

How the data were processed

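Intestinal RNA of mice was measured in 1 library per condition. Per the labels' protocols, total RNA was extracted with ISOGEN, ribosomal RNA was removed with Ribo-Zero Plus, and stranded TruSeq libraries were made without bead purification. Per the submitters' processing notes, the authors used HISAT2 (no version), Cuffdiff 2.2.1 and GRCm38; the sources used here do not give their annotation. The deposited table gives FPKM per the file headers, with no counts. Fragments were estimated from the smallest FPKM steps, given annotated transcript lengths, so no counting intervals are printed. The deposited FPKM were compared, with no rescaling, as log2(FPKM + 0.5) among genes of at least 1 FPKM in either library, with Python 3.11.15, pandas 2.3.3 and numpy 2.4.6. The script was tested on simulated data. Gene types and coordinates came from GENCODE M21, in which 241 genes were not found.

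Lists (70, plus 3 added after values were seen) are described by counts and medians beside the same over all genes. The members and lists were chosen with earlier results of these data known. Named genes were the 15 with the largest difference each way among genes of at least 5 FPKM in either library, without predicted genes, pseudogenes, small RNAs, mitochondrial genes, histones and antigen receptor segments, and up to 6 members of each list plus those 2-fold apart. Promoters came from RefSeq (GRCm38.p6). The 6 alternatives were other pseudocounts (1 and 0.1), no floor, a floor of 5 FPKM, scaling by the median of ratios, and leaving out small RNAs. The last also left out the listed abundant noncoding RNAs, long ones included.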

Additional observations from a re-analysis of the deposited data

Results flagged for a closer look

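The following values had the opposite sign in the day 33 pair (2KR minus 1KR) and in the day 28 pair (2K minus 1K). The difference between the days was not tested, since each pair is 2 single libraries, and the pairs share none. The 2K library held pancreas and liver transcripts, whose part in these values was not tested.

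The Paneth cell list had a median of 0.89 at day 33 and -1.74 at day 28, and the pancreatic acinar list -0.52 and 9.26. Of genes higher in 2KR, Fabp6 differed by 7.93 at day 33 and -8.77 at day 28, Tmigd1 by 2.03 and -4.49, Plb1 by 1.99 and -6.97, and Mgat4c by 1.94 and -4.68.

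Of genes lower in 2KR, Ccl21a differed by -4.75 at day 33 and 1.80 at day 28, Tmprss15 by -4.63 and 2.92, Reg1 by -3.67 and 8.72, and Akp3 by -3.38 and 7.31. Otop3 differed by -3.16 and 2.81, Ctrb1 by -2.57 and 14.10, S100g by -2.23 and 1.84, and Slc46a1 by -1.998 and 1.33.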

How the results depend on the processing

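No paired analysis was possible because each condition has 1 library. With a floor of 5 FPKM, fewer genes were tested and the counts of genes at least 2-fold apart were 264 higher and 284 lower for 2KR against 1KR, 1788 higher for 2K against 1K, 208 higher and 272 lower for 1KR against RR, 244 higher and 306 lower for 2KR against RR, and, for genes higher in 3KR, 1175 against RR, 1347 against 1KR and 1198 against 2KR. With small RNAs left out, 337 genes were lower in 2KR than in 1KR and 246 higher in 1KR than in RR. Under pseudocounts of 1 and 0.1, no floor and median-of-ratios scaling, these counts stayed within 1.5 times.

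Of the list medians, 4 changed sign: tuft cell (0.0863), endothelium (-0.0330) and pancreatic islet (0.124) with a floor of 5 FPKM, and ion and water transport (0.00392) with small RNAs left out. The interferon median was 1.26 with a floor of 5 FPKM. The count of T and NK cell genes lower in 2KR was 8 with a pseudocount of 1. That of pancreatic acinar genes was 2 with a floor of 5 FPKM, that of plasma cell genes was 0 and that of fat absorption genes 1 with small RNAs left out. Epithelial defence genes higher were 5 with a pseudocount of 1, macrophage genes higher 1 with a floor of 5 FPKM, and liver genes higher 7 with a pseudocount of 0.1. The causes were not tested. With 1 library a side, the spread between mice is unknown, and low genes rest on few fragments.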
